A study of Mus musculus with 39 samples.

Results

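This report describes the mRNA of p53 (gene Trp53) and of 9 genes that p53 is known to switch on, Cdkn1a, Mdm2, Bax, Aen, Ccng1, Pmaip1, Bbc3, Phlda3 and Zmat3, in mouse N2a neuroblastoma cells in which the RNA-guided ribonuclease RfxCas13d was given a targeting or a non-targeting (NT) crRNA. The 10 genes were taken by symbol from a list that was drawn up with earlier results of these data known, and all 10 are listed among the 25239 genes of the wild-type (WT) table and the 25241 rows of the tdTomato-line table. mRNA was sequenced in 39 libraries 48 h after co-transfection of plasmids for RfxCas13d and a crRNA, so that NT cells carry RfxCas13d as well. WT N2a cells received Sik3 crRNA 1 or 8, Map2 crRNA 1 or 3, Mapt crRNA 4 or 6, or Rbfox3 crRNA 3, with NT replicates 1, 2 and 6 as their control (the WT set), or Rbfox3 crRNA 5, with NT replicates 3, 4 and 5 as its control (the N set). This match of crRNAs to controls was inferred from the library names. The sample titles number the 6 NT libraries of WT cells in a single run. N2a cells that stably express the red fluorescent protein tdTomato received tdTomato crRNA 4 or 7 or NT. Each of these 13 groups has 3 libraries. The labels do not say that replicates were separate cultures, so the p-values cover the spread between libraries alone, which may be technical. The study's methods name a sort of transfected, GFP-positive cells for RNA of some of its experiments. The labels of these libraries name none, and whether untransfected cells are part of them is not given in the sources used here.

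p53 is a transcription factor that is stabilised when cells sense DNA damage or other stress, and it then switches on genes for cell-cycle arrest, repair and apoptosis. Mdm2 is both its target and the ubiquitin ligase that marks p53 for degradation, which closes a feedback loop. The amount of p53 protein is set largely by its stability, so Trp53 mRNA is not a measure of p53 activity, and the mRNA of its targets is also shaped by other regulators.

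RefSeq promoters (GRCm38.p6, from 250 bases before to 50 bases after an annotated start) were given for 8 of the 10 genes, all except Pmaip1 and Zmat3. They are shown because the targets are grouped by their control by p53. The p53 half-site consensus, a palindromic motif of 10 bases that therefore needs no second strand, was searched without mismatches. It occurred in 8.36% of 32851 promoters of this length, or in at least 1 promoter of 9.55% of 27025 genes. Of the 8 genes, 6 held at least 1 match. Each line gives 60 bases of the gene's own strand, with the match in capitals.
Trp53, chr11:69580259-69580318, plus strand: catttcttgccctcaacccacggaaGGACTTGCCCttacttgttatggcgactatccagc
Mdm2, chr10:117710910-117710969, minus strand: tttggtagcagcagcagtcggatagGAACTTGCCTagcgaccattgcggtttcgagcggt
Cdkn1a, chr17:29090903-29090962, plus strand: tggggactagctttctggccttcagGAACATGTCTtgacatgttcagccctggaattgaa
Ccng1, chr11:40755437-40755496, minus strand: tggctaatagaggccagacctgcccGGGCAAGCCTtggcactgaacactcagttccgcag
Bax, chr7:45467065-45467124, minus strand: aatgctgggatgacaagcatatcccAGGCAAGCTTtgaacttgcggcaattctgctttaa
Aen, chr7:78895912-78895971, plus strand: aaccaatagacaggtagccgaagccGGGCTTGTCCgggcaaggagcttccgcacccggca
The matches begin at −75 from the annotated start in Trp53, −186 in Mdm2, −51 in Cdkn1a, −185 in Ccng1 and −201 in Bax. In Aen the match begins at −121 from one annotated start and 10 bases after another. Cdkn1a holds a further match at −73, and it is the only one of the genes with a pair of matches no more than 13 bases apart, which 0.0731% of all promoters have. No match was found in the windows of Bbc3 and Phlda3. A match describes the letters of a window and says nothing of binding in these cells. None of the spacers of 22 nt resembled these mRNAs closely: over the 10 targeting spacers and the NT spacer, the best ungapped match in any annotated transcript of the 10 genes had 6 mismatches (Mapt crRNA 4 and Mapt crRNA 6 in Zmat3, and Rbfox3 crRNA 3 in Trp53 and in Aen).

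The deposited values are FPKM, read fragments scaled by gene length and by the library's total, which can be compared between genes. Estimated from the size of 1 read, WT libraries held 10405722 to 16874763 counted reads, and tdTomato-line libraries 2199738 to 4300019, so values of the tdTomato line carry more counting error. These depths are approximate. Under them, 58.5% to 68.5% of the single-exon genes with few reads came to whole reads in WT libraries. In tdTomato-line libraries 45.3% to 55.6% did. With the 8 crRNAs to Sik3, Map2, Mapt and tdTomato, the target was at 11.9% to 50.7% of NT, and below every NT library in 24 of 24 libraries. Rbfox3, the target of 2 further crRNAs, was at most 0.136 FPKM with its crRNAs and at most 0.0651 FPKM in their NT libraries, so its knockdown could not be measured. Of 10 sympathoadrenal markers, which fit a neuroblastoma line, 9 had a mean of at least 1 FPKM in every group. Of 10 markers of immune cells, fibroblasts, endothelium, glia and epithelium, 2 to 4 had such a mean in a group, and their summed level was 8.12 to 10.9 FPKM in the 7 crRNA groups of the WT set, against 8.28 to 9.81 FPKM in its NT libraries. The immune markers Ptprc and Adgre1 and the epithelial marker Epcam had a median of 0 FPKM in both cell lines. Other markers of this list were detected. The immune marker Cd68 had a median of 0.769 FPKM in WT cells and 3.54 FPKM in the tdTomato line. In the same order, the medians were 5.79 and 2.47 FPKM for Pecam1 (endothelium). They were 0.908 and 7.11 FPKM for Col1a1 (fibroblasts), and 1.33 and 0.523 FPKM for Mbp (glia). In the tdTomato line this list summed to 9.88 to 17.2 FPKM with the crRNAs, against 12.4 to 16.8 FPKM with NT. The sympathoadrenal markers summed to 806 to 893 FPKM in the 7 crRNA groups of the WT set, against 800 to 835 FPKM in its NT libraries. The part of this shift in the results below was not tested.

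Across the 7 crRNAs of the WT set, Trp53 and its targets Mdm2, Bax and Aen were lower than with NT in all 21 crRNA libraries, at 0.713 to 0.813 of the NT level in the mean, while Ccng1 was higher and Cdkn1a slightly lower. Bbc3, Phlda3 and Zmat3 did not pass the test, and Pmaip1 was at or near 0 FPKM. A gene was called higher or lower at an adjusted p under 0.05 in limma, on the log2(FPKM + 0.5) scale, among 11553 genes with a mean of at least 1 FPKM. Of the 9 genes of the p53 group tested, 5 were lower and 1 was higher in the mean of the 7 crRNAs, where 21.7% of all tested genes were lower and 28.2% higher. Their median log2 fold change was −0.11, against 0.03 over all tested genes. Every crRNA library lay below every NT library for 4 of the 9 genes, as for 7.64% of all tested genes, and above every NT library for 0 of the 9, as for 7.5% of all. In bulk RNA, fewer cells with an mRNA and less of it per cell cannot be told apart.

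**Figure D1:**
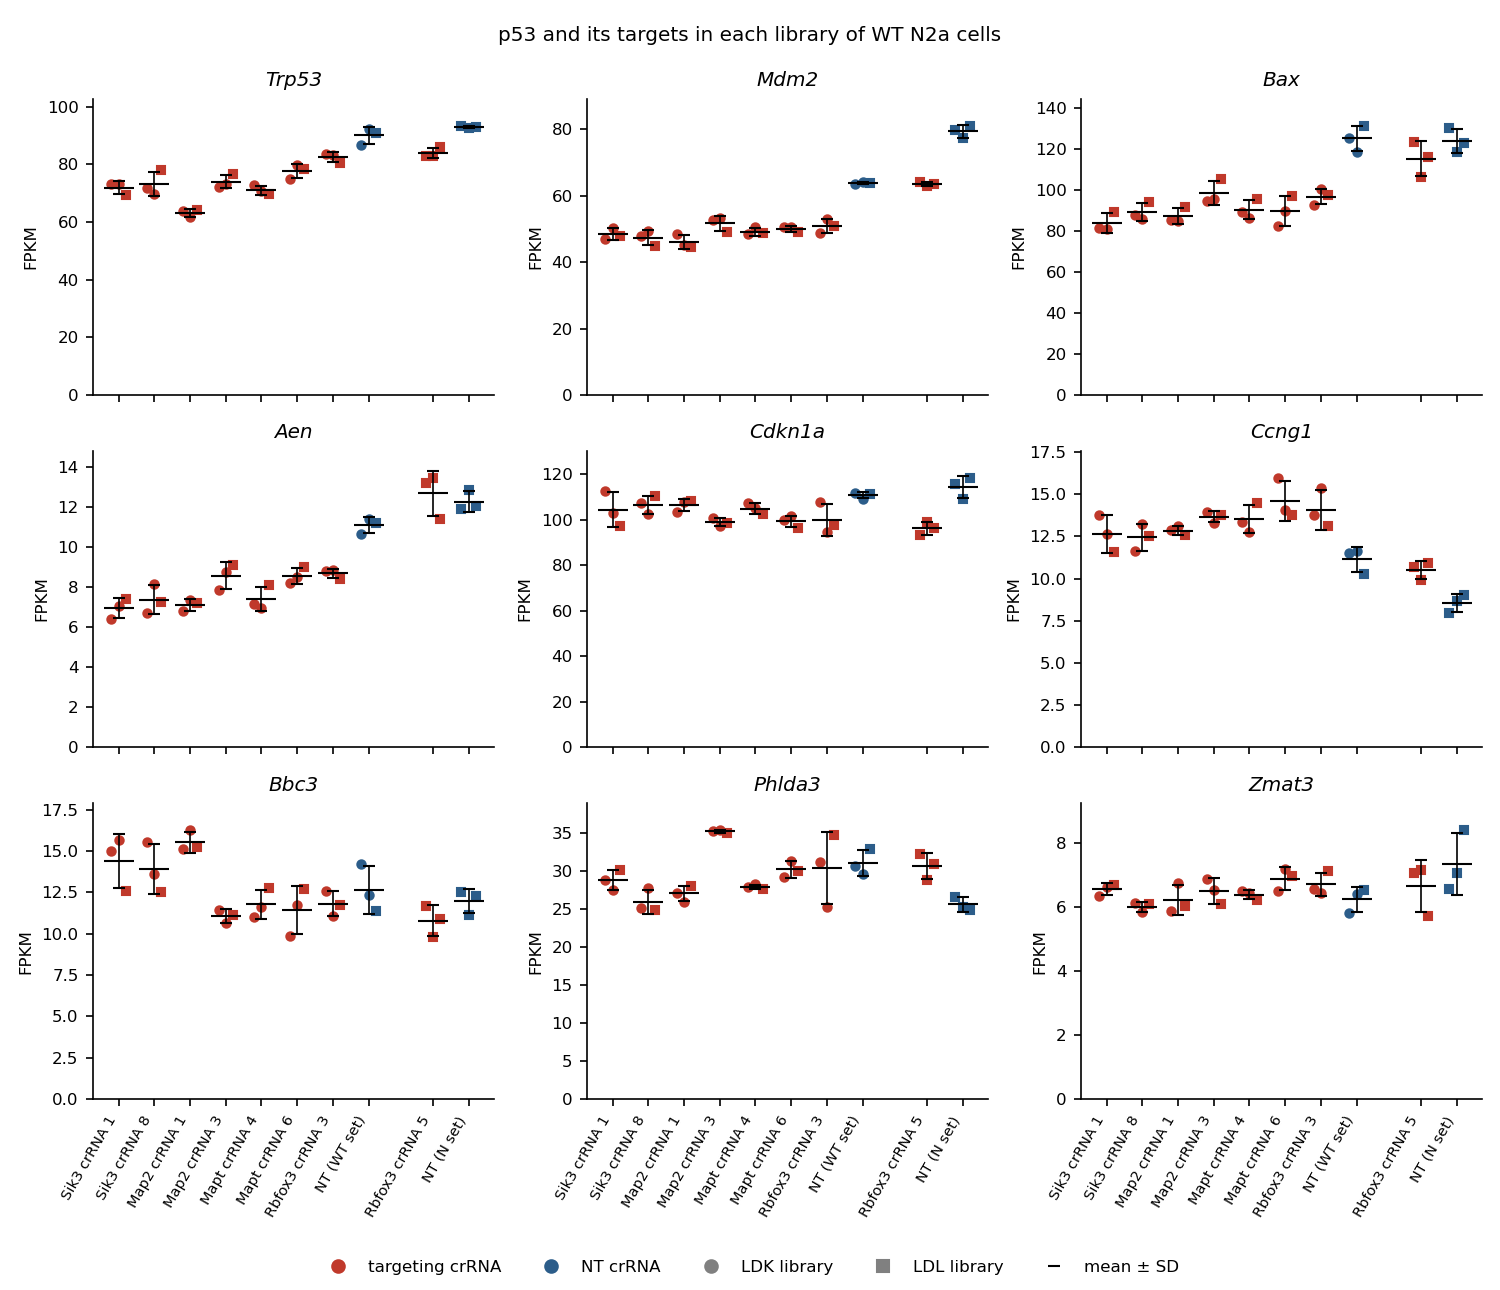
FPKM of each library (points) in WT N2a cells by group, with the mean and SD of 3 libraries; red points are targeting crRNAs, blue points NT, circles LDK and squares LDL libraries. All 21 crRNA libraries of the WT set lie below its 3 NT libraries for Trp53, Mdm2, Bax and Aen, and Mdm2 is higher in NT of the N set (77.3 to 81.1 FPKM) than in NT of the WT set (63.5 to 64.2 FPKM).

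Trp53 (chr11:69580359-69591873, plus strand) ranged from 61.7 FPKM through a median of 73.1 to 83.7 FPKM over the 21 crRNA libraries, against 86.8, 92.2 and 91.0 FPKM in the NT libraries. The ranges did not overlap. The mean log2 fold change was −0.30 ± 0.0288 (SE), a ratio of 0.813, with an adjusted p of 1.2e-08 in limma. Library names carry a series (LDK or LDL), and the log2 difference was −0.29 within the LDK libraries (14 crRNA and 2 NT) and −0.31 within the LDL libraries (7 and 1).

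Mdm2 (chr10:117688875-117710758, minus strand), the p53 ubiquitin ligase, was at 44.6 to 53.3 FPKM with the crRNAs, with a median of 49.1, against 63.5, 64.2 and 63.8 FPKM with NT. Here too the groups were apart, and the 3 NT libraries lay close together. The log2 fold change was −0.38 ± 0.0284, a ratio of 0.771 (adjusted p = 2.53e-10 in limma), with −0.36 within LDK and −0.41 within LDL libraries. The NT level of Mdm2 itself differed between the WT set and the N set, and with all 6 NT libraries as control the log2 fold change was −0.55.

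Of the targets for cell-cycle arrest, Cdkn1a (chr17:29090976-29100727, plus strand) encodes p21, which inhibits cyclin-dependent kinases. By median it was the most abundant of the 10 genes in crRNA libraries, at 94.4 to 113 FPKM with the crRNAs (median 102) and 112, 109 and 112 FPKM with NT. The crRNA libraries were below every NT library in 19 of 21 cases and above in 1, so the ranges overlapped. The log2 fold change was small, −0.11 ± 0.0361, with an adjusted p of 0.0163 in limma. That call was lost without NT replicate 1, without NT replicate 6 and with LDK libraries only (adjusted p up to 0.104).

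Ccng1 (chr11:40748552-40755311, minus strand) encodes cyclin G1, which recruits a phosphatase to Mdm2. Its level was 11.6 to 16.0 FPKM with the crRNAs (median 13.3), against 11.5, 11.6 and 10.3 FPKM with NT, and 19 of 21 crRNA libraries were above every NT library. It was the only one of the 9 tested genes that rose in this mean, by 0.25 ± 0.053 on the log2 scale, a ratio of 1.19 (adjusted p = 0.000345 in limma). Within LDK libraries the log2 difference was 0.22, and within LDL libraries 0.33.

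Of the apoptosis genes, Bax (chr7:45461697-45466898, minus strand), which permeabilises the outer mitochondrial membrane, was at 81.0 to 105 FPKM with the crRNAs (median 89.8), against 125, 119 and 131 FPKM with NT. Aen (chr7:78895854-78911209, plus strand), an exonuclease that acts in apoptosis, was at 6.38 to 9.11 FPKM (median 7.84), against 10.7, 11.4 and 11.2 FPKM with NT. Both had the largest decreases of the group, with no overlap between crRNA and NT libraries. The log2 fold changes were −0.46 ± 0.0351 for Bax (ratio 0.726, adjusted p = 2.63e-10 in limma) and −0.49 ± 0.0549 for Aen (ratio 0.713, adjusted p = 1.23e-07). Within LDK libraries the differences were −0.47 for Bax and −0.50 for Aen, and within LDL libraries −0.45 and −0.46 in the same order of genes. The exons of Bax overlap those of Gm45808 on the same strand over 12.2% of their length, and those of Cdkn1a overlap AC167363.2 on the opposite strand over 7.68%. Neither overlapping gene was used here, and the strand setting of the counting is not known.

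Bbc3 (chr7:16308393-16318205, plus strand) encodes the BH3-only protein PUMA, and it was at 9.86 to 16.3 FPKM with the crRNAs against 14.2, 12.3 and 11.4 FPKM with NT (log2 fold change 0.01 ± 0.0731, adjusted p = 0.886 in limma). Phlda3 (chr1:135766119-135769136, plus strand), which encodes a pleckstrin-homology-domain inhibitor of AKT, was at 24.9 to 35.4 FPKM against 30.7, 29.6 and 32.9 FPKM with NT (−0.09 ± 0.0528, adjusted p = 0.181). Zmat3 (chr3:32334792-32366014, minus strand), which encodes an RNA-binding zinc finger protein, was at 5.82 to 7.18 FPKM against 5.79, 6.41 and 6.51 FPKM with NT (0.05 ± 0.0634, adjusted p = 0.57). For these 3 genes the crRNA libraries spread across the NT libraries. Pmaip1, which encodes the BH3-only protein NOXA, fell under the filter of 1 FPKM and was not tested. It was at 0 FPKM in 27 of 30 WT libraries, and at 0.0788 FPKM in Mapt crRNA 6 replicate 3, 0.0362 FPKM in Rbfox3 crRNA 5 replicate 3 and 0.0296 FPKM in NT replicate 4. A single Pmaip1 read was worth 0.0217 to 0.0352 FPKM in WT libraries, so 3 reads, the level that a count of 0 still allows, correspond to 0.0651 to 0.106 FPKM by counting error alone.

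**Figure D2:**
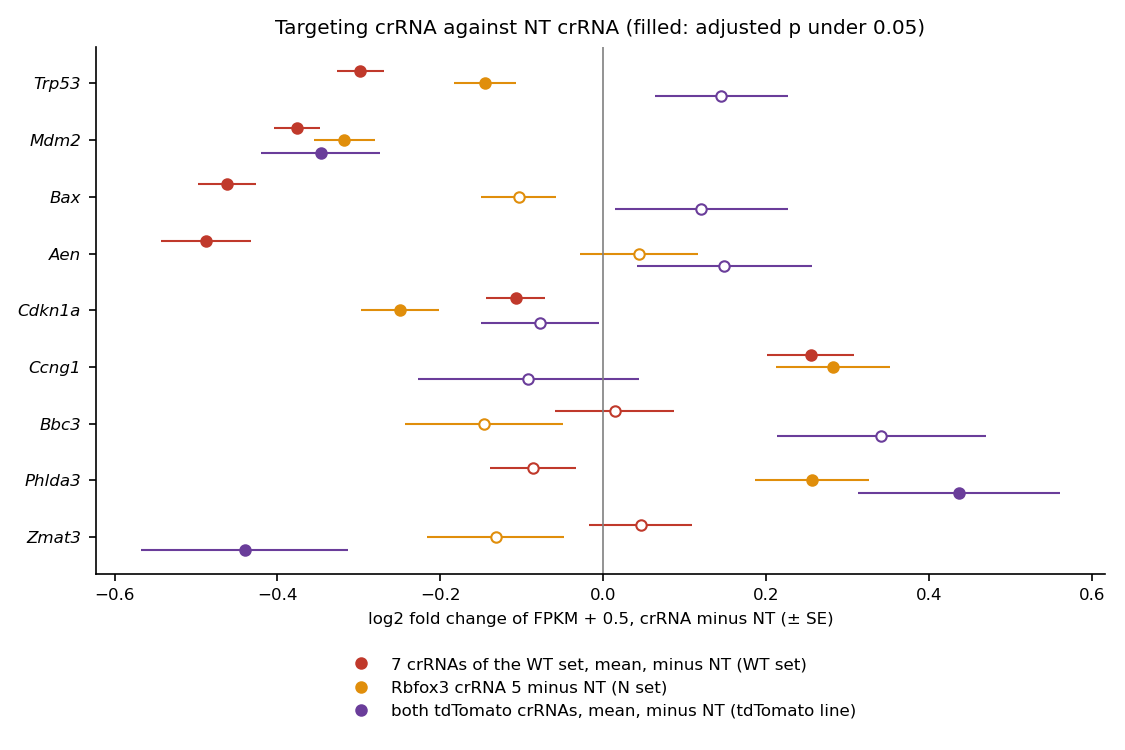
Log2 fold change of FPKM + 0.5 (± SE) for the 9 tested genes, averaged over the 7 WT-set crRNAs minus their NT (red), Rbfox3 crRNA 5 minus NT of the N set (orange) and the mean of both tdTomato crRNAs minus NT of the tdTomato line (purple); filled points have an adjusted p under 0.05. Mdm2 is filled and left of 0 in all 3 comparisons (−0.38, −0.32 and −0.35), while Bax and Aen are filled in the WT set alone.

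Taken 1 crRNA at a time, Trp53, Mdm2, Bax and Aen were each lower with all 7 crRNAs of the WT set, which share their 3 NT libraries. Of all tested genes, 13.4% to 23.9% were lower per crRNA, and the share lower with all 7 was not counted. For Trp53 the log2 fold change ran from −0.51 ± 0.0381 with Map2 crRNA 1 (adjusted p = 2.11e-10 in limma), where the libraries were at 63.7, 61.7 and 64.2 FPKM, to −0.13 ± 0.0381 with Rbfox3 crRNA 3 (adjusted p = 0.0139), where they were at 83.7, 83.2 and 80.5 FPKM. The call with Rbfox3 crRNA 3 was lost in the fit of those groups alone, with LDK libraries only, without NT replicate 2 and without Rbfox3 crRNA 3 replicate 3 (adjusted p up to 0.0898). Mdm2 spanned less, from −0.47 with Map2 crRNA 1 to −0.30 with Map2 crRNA 3. Bax spanned −0.57 with Sik3 crRNA 1 to −0.34 with Map2 crRNA 3, and Aen −0.64 with Sik3 crRNA 1 to −0.34 with Rbfox3 crRNA 3. Rbfox3 crRNA 3, 1 of 2 crRNAs whose target is near 0 FPKM, gave decreases in the same 4 genes as the others of the WT set. With the other, Rbfox3 crRNA 5, Trp53 and Mdm2 were lower than NT of the N set. Bax (−0.10, adjusted p = 0.104 in limma) and Aen (0.04, adjusted p = 0.695) did not pass there.

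Cdkn1a was lower with Map2 crRNA 3 (101, 97.5 and 98.6 FPKM, log2 fold change −0.16), Mapt crRNA 6 (99.9, 102 and 96.6 FPKM, −0.16) and Rbfox3 crRNA 3 (108, 94.4 and 97.8 FPKM, −0.15), with adjusted p of 0.0109, 0.0122 and 0.0188 in limma, against 112, 109 and 112 FPKM with NT. All 3 calls were lost with LDK libraries only. Those of Mapt crRNA 6 and Rbfox3 crRNA 3 were lost without NT replicate 6 as well, that of Mapt crRNA 6 without its replicate 3, and that of Rbfox3 crRNA 3 without NT replicate 1 or its own replicate 2 or 3 (adjusted p up to 0.135). Ccng1 was higher with 6 of the 7 crRNAs, from 0.17 ± 0.0702 with Sik3 crRNA 1 (adjusted p = 0.0466) to 0.38 ± 0.0702 with Mapt crRNA 6 (adjusted p = 0.000205). With Sik3 crRNA 8 the log2 fold change was 0.15 (adjusted p = 0.0808). The Sik3 crRNA 1 call held in 4 of 15 alternatives, and was lost without any 1 of the 3 NT libraries or without its replicate 1 or 2 (adjusted p up to 0.209). Among the other calls of Ccng1, that of Map2 crRNA 1 was lost without NT replicate 6 or its replicate 2 or 3 (adjusted p up to 0.128), and those of Map2 crRNA 1, Map2 crRNA 3 and Mapt crRNA 4 with LDK libraries only.

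The genes without a call in the mean did move with single crRNAs. Bbc3 was higher with Map2 crRNA 1, at 15.1, 16.3 and 15.2 FPKM against 14.2, 12.3 and 11.4 FPKM with NT (log2 fold change 0.29 ± 0.0968, adjusted p = 0.0151 in limma). That call was lost without NT replicate 2 or 6, without Map2 crRNA 1 replicate 2 and with LDK libraries only (adjusted p up to 0.0922). Phlda3 was lower with Sik3 crRNA 8 (25.1, 27.7 and 24.9 FPKM, log2 fold change −0.26, adjusted p = 0.00468) and with Map2 crRNA 1 (27.1, 26.0 and 28.1 FPKM, −0.19, adjusted p = 0.0237), and higher with Map2 crRNA 3 (35.3, 35.4 and 35.0 FPKM, 0.18, adjusted p = 0.0486), against 30.7, 29.6 and 32.9 FPKM with NT. The Phlda3 calls depended on the controls: with all 6 NT libraries neither decrease passed, with LDK libraries only none of the 3 calls held, and the Map2 crRNA 3 call was lost without any 1 of the 3 NT libraries or of its own 3 libraries (adjusted p up to 0.149). The Map2 crRNA 1 call was also lost without NT replicate 1 or 6 or its replicate 2 (adjusted p up to 0.601 over all alternatives). Zmat3 passed with 0 of the 7 crRNAs by limma, and also with 0 at an unadjusted p under 0.05.

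The number of genes of the group called per crRNA, of 9 tested, can be read against all tested genes. With Sik3 crRNA 1, 4 were lower and 1 higher, where 21.1% of all genes were lower and 23.6% higher. With Sik3 crRNA 8, 5 were lower and 0 higher (21.2% and 21.7% of all genes). Map2 crRNA 1 gave 5 lower and 2 higher (23.9% and 25.8%), and Map2 crRNA 3 gave 5 lower and 2 higher (13.4% and 19.8%). Mapt crRNA 4 gave 4 lower and 1 higher (16.7% and 21.8%), Mapt crRNA 6 gave 5 lower and 1 higher (14.6% and 22.2%), and Rbfox3 crRNA 3 gave 5 lower and 1 higher (13.4% and 19.1%). The median log2 fold change of the 9 genes lay between −0.26 and −0.11 over these crRNAs, and that of all tested genes between 0.01 and 0.05.

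The crRNAs differed among themselves in 6 of the 9 genes by a moderated F test in limma that uses no NT library, where 43.5% of all tested genes differed. These were Trp53 (adjusted p = 1.37e-06), Phlda3 (0.000461), Bbc3 (0.00102), Aen (0.00168), Bax (0.00249) and Mdm2 (0.00918). Cdkn1a, Ccng1 and Zmat3 did not pass (adjusted p = 0.177, 0.0769 and 0.496). By mean, Trp53 was ordered from Map2 crRNA 1 (63.2 ± 1.35 FPKM, SD, n = 3) over Mapt crRNA 4 (71.0 ± 1.57), Sik3 crRNA 1 (71.9 ± 2.27), Sik3 crRNA 8 (73.2 ± 4.31), Map2 crRNA 3 (74.0 ± 2.21) and Mapt crRNA 6 (77.7 ± 2.35) to Rbfox3 crRNA 3 (82.5 ± 1.75). The 4 from Mapt crRNA 4 to Map2 crRNA 3 lay within 1 SD of each next one among themselves, while Map2 crRNA 1 lay below and Rbfox3 crRNA 3 above all libraries of the others.

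Pairs of crRNAs to the same target were compared directly. Between the Map2 crRNAs, 5 of the 9 genes were higher and 1 lower with crRNA 3 than with crRNA 1, where 21.3% and 14.6% of all tested genes were. Trp53 was at 72.3, 73.3 and 76.5 FPKM with crRNA 3, against 63.7, 61.7 and 64.2 FPKM with crRNA 1, a log2 difference of 0.23 ± 0.0381 (adjusted p = 6.6e-05 in limma). Mdm2 was at 52.8, 53.3 and 49.2 FPKM against 48.6, 45.2 and 44.6 FPKM (0.17 ± 0.0376, adjusted p = 0.00142). The libraries of the pair were apart for both genes, and the share of all tested genes set apart in this way was not counted.

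Bax differed by 0.17 ± 0.0464 (adjusted p = 0.00509 in limma), at 94.9, 95.9 and 105 FPKM with Map2 crRNA 3 against 85.4, 85.0 and 91.8 FPKM with crRNA 1. Aen differed by 0.25 ± 0.0726 (adjusted p = 0.00957), at 7.84, 8.75 and 9.11 FPKM against 6.79, 7.36 and 7.20 FPKM. The largest differences of the pair were in Bbc3 and Phlda3, which moved in opposite directions. Bbc3 was lower with crRNA 3, at 11.4, 10.6 and 11.1 FPKM, against 15.1, 16.3 and 15.2 FPKM with crRNA 1 (−0.47 ± 0.0968, adjusted p = 0.000557). Phlda3 was higher with crRNA 3, at 35.3, 35.4 and 35.0 FPKM, against 27.1, 26.0 and 28.1 FPKM with crRNA 1 (0.38 ± 0.0698, adjusted p = 0.000199). These 6 calls of the Map2 pair were kept in all 13 alternatives run for each.

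**Figure D3:**
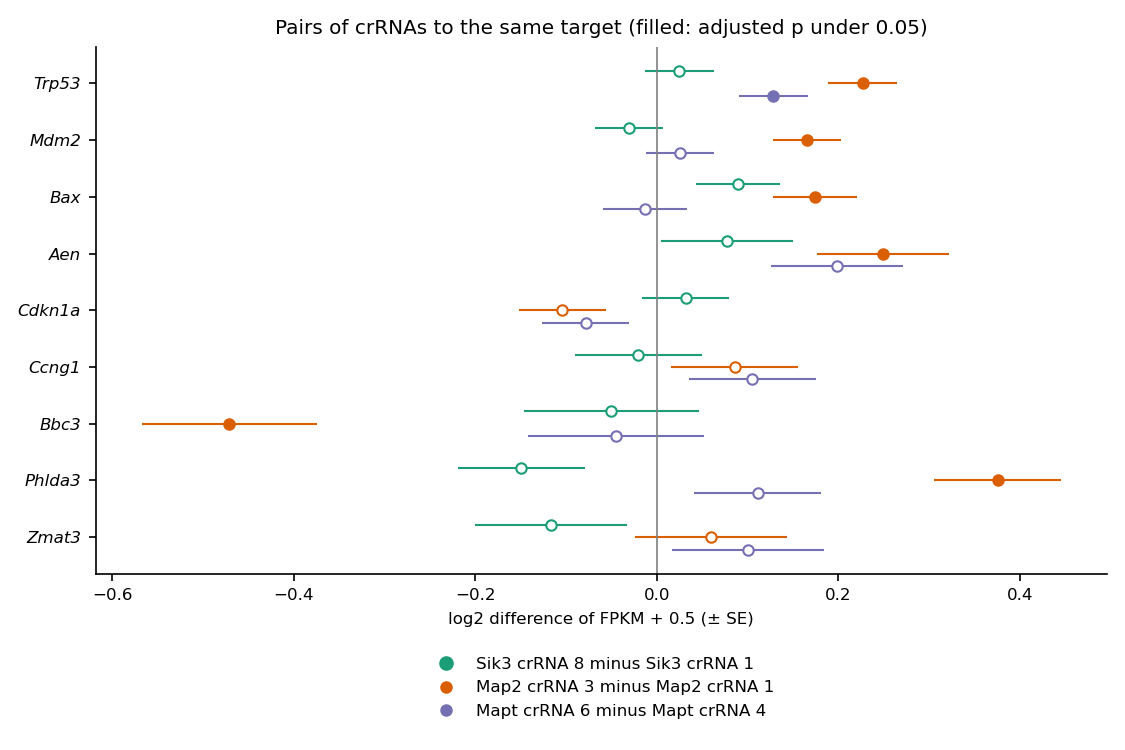
Log2 difference of FPKM + 0.5 (± SE) between the higher- and the lower-numbered crRNA to Sik3 (green), Map2 (orange) and Mapt (violet) for the 9 tested genes; filled points have an adjusted p under 0.05. The Map2 pair has 6 filled points, from −0.47 (Bbc3) to 0.38 (Phlda3), the Mapt pair has 1 (Trp53, 0.13) and the Sik3 pair has none.

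Between the Mapt crRNAs, 1 of the 9 genes was higher and 0 were lower with crRNA 6, where 4.48% and 2.98% of all tested genes were. Trp53 was at 75.1, 79.7 and 78.2 FPKM with crRNA 6, against 72.7, 70.6 and 69.6 FPKM with crRNA 4 (0.13 ± 0.0381, adjusted p = 0.0397 in limma). This call was lost in 9 of 13 alternatives, among them leaving out any 1 library of the pair except crRNA 6 replicate 1 (adjusted p up to 0.171). Between the Sik3 crRNAs, 0 of the 9 genes passed in either direction by limma, where 1.52% of all tested genes were higher and 1.09% lower with crRNA 8. The number at an unadjusted p under 0.05 was 1 (Phlda3).

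The N set gives a second comparison against separate NT libraries. Rbfox3 crRNA 5 gave 3 of the 9 genes lower and 2 higher, where 13.1% and 12.6% of all tested genes were. Trp53 was at 83.0, 83.0 and 85.9 FPKM with crRNA 5, against 93.4, 92.6 and 92.8 FPKM with NT (log2 fold change −0.15 ± 0.0381, adjusted p = 0.00638 in limma). Mdm2 was at 64.3, 63.1 and 63.5 FPKM, against 79.8, 77.3 and 81.1 FPKM (−0.32 ± 0.0376, adjusted p = 1.09e-06). For both genes all crRNA libraries lay below all NT libraries of the set. The share of all tested genes separated in this way was not counted for this set.

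Cdkn1a had its largest decrease here, at 93.2, 99.2 and 96.2 FPKM with Rbfox3 crRNA 5, against 116, 109 and 118 FPKM with NT (−0.25 ± 0.0478, adjusted p = 0.000424 in limma). Ccng1 was at 10.7, 9.92 and 10.9 FPKM, against 7.97, 8.68 and 9.02 FPKM (0.28 ± 0.0702, adjusted p = 0.00434), and Phlda3 at 32.3, 28.8 and 31.0 FPKM, against 26.6, 25.3 and 24.9 FPKM (0.26 ± 0.0698, adjusted p = 0.00843). For both genes every crRNA library was above every NT library of the set, a share likewise not counted over all tested genes. Both calls were lost with all 6 NT libraries as control (adjusted p = 0.119 for Ccng1 and 0.200 for Phlda3 in limma). Bax was at 124, 106 and 116 FPKM, against 130, 119 and 123 FPKM (−0.10, adjusted p = 0.104), and Aen at 13.2, 13.5 and 11.4 FPKM, against 11.9, 12.9 and 12.1 FPKM (0.04, adjusted p = 0.695).

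The effects of the Rbfox3 crRNAs on Bax and Aen differed when tested directly as an interaction, crRNA 5 minus its NT less crRNA 3 minus its NT. The difference was 0.26 ± 0.0656 for Bax (adjusted p = 0.0186 in limma) and 0.38 ± 0.103 for Aen (adjusted p = 0.0288), so 2 of the 9 genes passed as higher and 0 as lower, where 1.95% and 3.57% of all tested genes did. Each held in 13 of 19 alternatives. Both were lost when only these groups were fitted and without Rbfox3 crRNA 3 replicate 3 or Rbfox3 crRNA 5 replicate 1. Bax was also lost with no series term and without NT replicate 1 or 4, and Aen without NT replicate 2 or 5 or Rbfox3 crRNA 5 replicate 2 (adjusted p up to 0.130). The libraries of the N set are all LDL, while each group of the WT set has 2 LDK libraries and 1 LDL library.

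The NT crRNA itself did not give the same levels in both sets. In the N set against the WT set, 1 of the 9 genes was higher and 2 were lower, where 26.5% and 19.9% of all tested genes were. Mdm2 was at 79.8, 77.3 and 81.1 FPKM with NT of the N set, against 63.5, 64.2 and 63.8 FPKM with NT of the WT set (log2 difference 0.34 ± 0.0399, adjusted p = 2.44e-07 in limma). This difference is about as large as the decrease of Mdm2 with the crRNAs of either set, and the level with Rbfox3 crRNA 5 (63.1 to 64.3 FPKM) falls on that of NT of the WT set. Ccng1 was at 7.97, 8.68 and 9.02 FPKM against 11.5, 11.6 and 10.3 FPKM (−0.32 ± 0.0744, adjusted p = 0.00109), a call lost when only the NT groups were fitted (adjusted p = 0.162). Phlda3 was at 26.6, 25.3 and 24.9 FPKM against 30.7, 29.6 and 32.9 FPKM (−0.31 ± 0.074, adjusted p = 0.00135). Trp53, Bax, Aen, Cdkn1a, Bbc3 and Zmat3 did not pass (adjusted p from 0.0623 to 0.752).

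In the tdTomato line, where the target is far more abundant, Mdm2 and Zmat3 were lower and Phlda3 was higher in the mean of both tdTomato crRNAs, and Trp53, Bax and Aen did not pass. Of the 9 tested genes, 1 was higher and 2 were lower, where 8.29% and 11.3% of 11852 tested genes were. The median log2 fold change was 0.12 over the 9 genes and −0.10 over all tested genes. Every crRNA library lay above every NT library for 1 of the 9 genes, as for 4.99% of all tested genes, and below for 0, as for 9.75% of all.

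**Figure D4:**
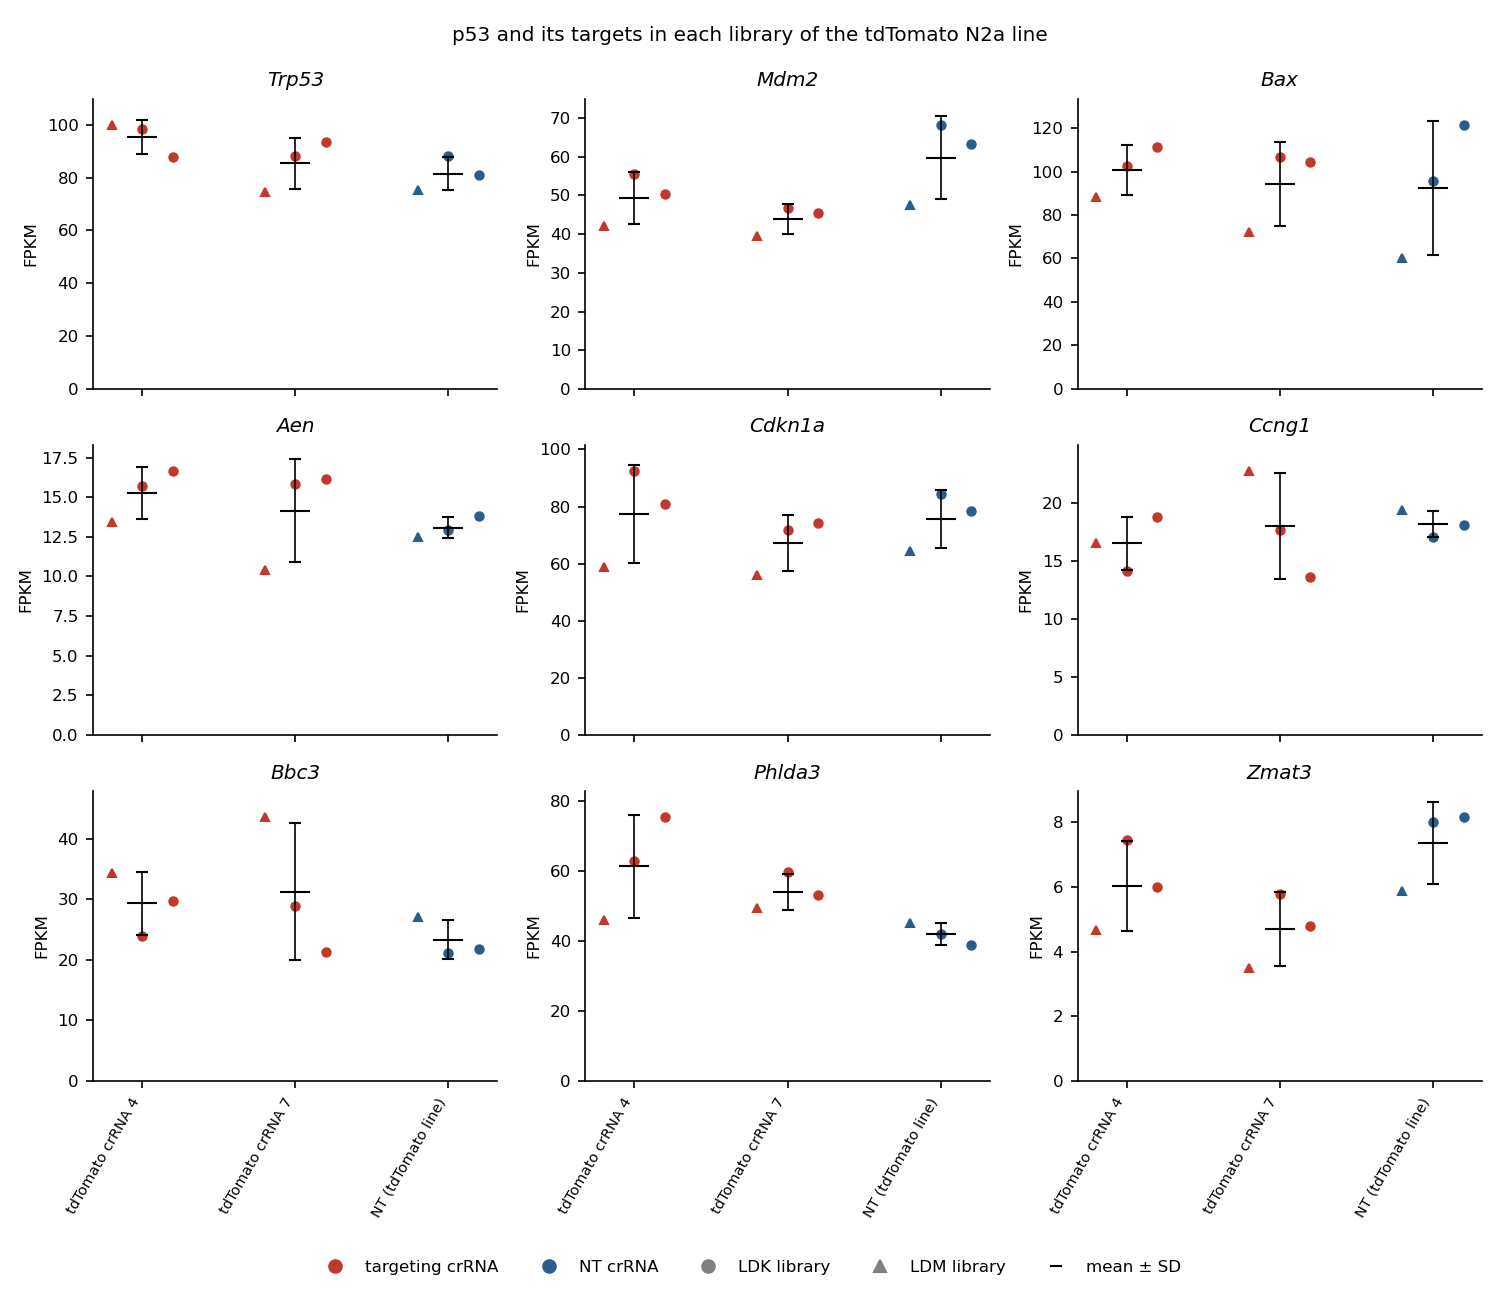
FPKM of each library (points) in the tdTomato N2a line for the 9 tested genes, with the mean and SD of 3 libraries; red points are tdTomato crRNAs, blue points NT, circles LDK and triangles LDM libraries. Phlda3 lies between 46.0 and 75.2 FPKM in the 6 crRNA libraries, above the 3 NT libraries. The LDM library is the lowest of its group for Mdm2, Bax, Cdkn1a, Aen and Zmat3, and the highest for Bbc3.

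In each group of this line, replicate 1 is of the LDM series and replicates 2 and 3 of the LDK series. The LDM libraries stand apart: they were the lowest of their group in 3 of 3 groups for Mdm2, Bax, Cdkn1a, Aen and Zmat3. For Bbc3 the LDM library was the highest of each group, at 27.0 FPKM with NT, 34.3 with crRNA 4 and 43.5 with crRNA 7. Trp53, Ccng1 and Phlda3 had neither order in all groups, and the share over all tested genes was not counted. The series was a term of the fit. Mdm2 was at 42.1, 55.4 and 50.3 FPKM with tdTomato crRNA 4 and 39.5, 46.8 and 45.4 FPKM with tdTomato crRNA 7, against 47.7, 68.1 and 63.3 FPKM with NT. Within each series the crRNA libraries were below NT, by −0.41 on the log2 scale in LDK (4 and 2 libraries) and −0.22 in LDM (2 and 1). The mean log2 fold change was −0.35 ± 0.0732 (adjusted p = 0.0114 in limma), and that of crRNA 7 alone −0.43 ± 0.0845 (adjusted p = 0.0105).

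Zmat3 was at 4.66, 7.44 and 5.98 FPKM with crRNA 4 and 3.51, 5.79 and 4.78 FPKM with crRNA 7, against 5.88, 8.01 and 8.14 FPKM with NT. The log2 fold change was −0.44 ± 0.127 in the mean of both (adjusted p = 0.038 in limma) and −0.61 ± 0.147 with crRNA 7 (adjusted p = 0.0216), and the within-series values were −0.42 in LDK and −0.49 in LDM. Phlda3 was at 46.0, 62.6 and 75.2 FPKM with crRNA 4 and 49.3, 59.6 and 53.1 FPKM with crRNA 7, against 45.2, 41.9 and 38.9 FPKM with NT. Its log2 fold change was 0.44 ± 0.124 in the mean (adjusted p = 0.0352) and 0.52 ± 0.143 with crRNA 4 (adjusted p = 0.0474). The within-series value was 0.62 in LDK and 0.08 in LDM, so the increase was seen in the LDK libraries.

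These calls of the tdTomato line hold less firmly than those of WT cells. Rescaling each library so that the median gene keeps its level moved the median of all genes by 0.12 on the log2 scale for crRNA 7, and after it Mdm2 did not pass in either comparison and Zmat3 not in the mean. With no series term 0 of the 3 genes passed, and over all alternatives the adjusted p in the mean of both went up to 0.229 for Zmat3, 0.164 for Mdm2 and 0.141 for Phlda3. Without the LDM libraries Zmat3 was lost in both comparisons. In that mean, Mdm2 was lost without NT replicate 2. Phlda3 was lost without NT replicate 2 or 3, crRNA 4 replicate 2 or 3, or any 1 library of crRNA 7, and Zmat3 without any 1 NT library, crRNA 4 replicate 1 or 3, or crRNA 7 replicate 1 or 3. With crRNA 4 alone, Phlda3 was lost without NT replicate 2 or 3 or its own replicate 2 or 3, and with crRNA 7 alone, Zmat3 was lost without any 1 NT library or its own replicate 1 or 3.

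The other genes did not pass here. Trp53 was at 99.8, 98.4 and 87.8 FPKM with crRNA 4 and 74.7, 88.0 and 93.6 FPKM with crRNA 7, against 75.4, 88.0 and 81.0 FPKM with NT (mean log2 fold change 0.15 ± 0.0814, adjusted p = 0.234 in limma). Bax ranged from 72.2 to 111 FPKM over both crRNAs, against 60.1, 95.8 and 121 FPKM with NT (0.12 ± 0.107, adjusted p = 0.454), and Aen from 10.4 to 16.6 FPKM, against 12.5, 12.9 and 13.8 FPKM (0.15 ± 0.108, adjusted p = 0.357). The NT spread of Bax alone covered all crRNA libraries. Bbc3 had 4 of 6 crRNA libraries above every NT library (21.3 to 43.5 FPKM, against 27.0, 21.2 and 21.7 FPKM) and a log2 fold change of 0.34 ± 0.128 (adjusted p = 0.0881). Cdkn1a (−0.08 ± 0.0724) and Ccng1 (−0.09 ± 0.136) had adjusted p of 0.48 and 0.665. Pmaip1 was at 0 FPKM in all 9 libraries, where 3 reads correspond to 0.255 to 0.499 FPKM.

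Per crRNA, 1 of 9 genes was higher and 0 were lower with tdTomato crRNA 4 (6.38% and 4.22% of all tested genes), and 0 were higher and 2 lower with tdTomato crRNA 7 (6.66% and 11.2%). Between crRNA 7 and crRNA 4, 0 of the 9 passed in either direction by limma, where 0.00844% of all tested genes were higher and 0.0422% lower, and 1 (Zmat3) had an unadjusted p under 0.05. The 2 cell lines were fitted separately and the difference between their effects was not tested.

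Other genes of the p53 pathway were taken from lists. Of 22 tested regulators of p53, 3 were higher and 3 lower in the mean of the 7 crRNAs, where 28.2% of all tested genes were higher and 21.7% lower, so both counts are below the share over all genes. Their median log2 fold change was −0.01 beside 0.03 over all tested genes. For the genes of these lists, the SD with the crRNAs is over all 21 libraries of the 7 crRNAs. It includes differences between crRNAs and is not the spread of replicates of 1 condition. The alternative fits were not run for the genes of these lists in either cell line. The largest changes were in Sirt1, a deacetylase that acts on p53, at 12.4 ± 1.8 FPKM with the crRNAs (SD, n = 21) against 17.5 ± 0.859 FPKM with NT (n = 3; log2 fold change −0.49, adjusted p = 1.32e-07 in limma), in Mdm4, the Mdm2 relative that inhibits p53 (18.3 ± 2.08 against 14.5 ± 1.09 FPKM, 0.33, adjusted p = 8.98e-05), and in Daxx, a partner of Mdm2 (16.3 ± 1.4 against 20.1 ± 0.63 FPKM, −0.30, adjusted p = 9.92e-06). Mdm4 thus changed in the opposite direction to Mdm2.

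Of 30 further p53 targets tested, 12 were higher and 9 lower, beside the same 28.2% and 21.7% of all tested genes, with a median of 0.08. Gadd45a, a stress sensor of growth arrest, was at 27.3 ± 3.5 FPKM with the crRNAs against 18.9 ± 0.345 FPKM with NT (0.51, adjusted p = 7.45e-08 in limma), and Gdf15, a stress-induced secreted factor, at 32.6 ± 3.17 against 24.6 ± 1.23 FPKM (0.39, adjusted p = 2.95e-06). Bloc1s2, a subunit of the BLOC-1 complex, was at 25.7 ± 3.6 against 35.6 ± 5.95 FPKM (−0.46, adjusted p = 0.000189).

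Among 9 tested partners of Bax in the BCL2 family, 2 were higher and 1 lower, at or below the 28.2% and 21.7% of all tested genes, with a median of −0.08. The pro-survival Mcl1 (56.4 ± 3.5 against 41.0 ± 1.7 FPKM, 0.45, adjusted p = 1.69e-11 in limma) and Bcl2l1 (12.1 ± 1.16 against 9.91 ± 0.652 FPKM, 0.27, adjusted p = 0.000778) rose. Bak1, which like Bax permeabilises mitochondria, fell, at 32.8 ± 5.02 FPKM with the crRNAs against 44.5 ± 2.62 FPKM with NT (−0.45, adjusted p = 2.07e-09). Of 14 tested cyclins, kinases and relatives around p21, 3 were higher and 4 lower, near the 28.2% and 21.7% of all tested genes, led by the G1 kinase Cdk4 (211 ± 15.2 against 285 ± 13.6 FPKM, −0.44, adjusted p = 2.49e-09), the pocket protein Rb1 (10.4 ± 1.63 against 7.66 ± 0.708 FPKM, 0.40, adjusted p = 2.79e-07) and cyclin Ccne2 (17.3 ± 2.17 against 21.7 ± 1.72 FPKM, −0.33, adjusted p = 7.26e-05).

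In the mean of both tdTomato crRNAs, 10 of 32 further p53 targets were higher and 1 lower, where 8.29% of all tested genes were higher and 11.3% lower, a background that holds for the other lists of this line too. The list had a median of 0.03 beside −0.10 over all tested genes. In this line the SD with the crRNAs is over the 6 libraries of both crRNAs, so it includes differences between them. Of the genes named in this paragraph, the crRNA and NT libraries overlapped for Cdkn2a, Bok, Cdkn2c and Ccne2. They lay apart for Gdf15, Perp, Rpl11 and Bak1. Gdf15 was at 33.3 ± 5.25 FPKM with the crRNAs (SD, n = 6) against 16.8 ± 2.33 FPKM with NT (n = 3; log2 fold change 0.96, adjusted p = 0.000352 in limma), and Perp, a membrane protein of p53-dependent apoptosis, at 8.06 ± 2.13 against 4.21 ± 0.973 FPKM (0.85, adjusted p = 0.00296). Of 22 regulators 2 were higher and 2 lower. Cdkn2a, which has ARF, a restraint of Mdm2, among its products, was at 68.1 ± 11.7 against 46.6 ± 4.7 FPKM (0.53, adjusted p = 0.00678). The FPKM of a gene does not tell its transcripts apart. Rpl11, a ribosomal protein that binds Mdm2, was at 28.5 ± 2.45 against 19.8 ± 2.05 FPKM (0.52, adjusted p = 0.00737). Of 10 BCL2 family partners 2 were higher and 0 lower, Bok (81.8 ± 9.73 against 60.5 ± 9.61 FPKM, 0.44, adjusted p = 0.00211) and Bak1 (44.6 ± 4.72 against 37.1 ± 1.55 FPKM, 0.26, adjusted p = 0.0293). Bak1 was thus lower in WT cells and higher in this line, each against its own NT libraries, and that difference was not tested. Of 14 partners of p21, Cdkn2c, a CDK inhibitor, was higher (48.6 ± 7.48 against 35.4 ± 5.96 FPKM, 0.45, adjusted p = 0.0108) and Ccne2 lower (18.6 ± 4.52 against 25.7 ± 3.4 FPKM, −0.48, adjusted p = 0.0295).

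Over the 30 WT libraries, the genes whose centred log2(FPKM + 0.5) was nearest to that of Trp53 were Arhgdia, Atic and Abcf2, with a root mean square difference of 0.0608, 0.0639 and 0.0673, beside an SD of 0.168 for Trp53 itself. Nearest to Mdm2 were Rab12, Nup50 and Sap30bp (0.061, 0.0753 and 0.0756, SD of Mdm2 0.245). The NT libraries of the N set entered this choice, so a high level there is part of how these genes were chosen. Rab12 averaged 61.7 FPKM with NT of the N set and 47.7 FPKM with NT of the WT set. Among those nearest to Cdkn1a were Cd164 and Sec62 (0.0619 and 0.0657), at a distance close to the SD of Cdkn1a (0.0899). None of these genes is in the lists above, and likeness of level is given as a description.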

How the data were processed

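Total RNA was isolated with Trizol, and mRNA libraries were sequenced. The authors used Trim Galore for trimming, Subread for alignment (mm10) and featureCounts for counting, and deposited FPKM values. Their versions, the annotation and the strand setting were not given in the sources used here. Without a known strand setting, reads of overlapping genes cannot be told apart. The study tested counts, which were not used here.

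Genes with a mean of at least 1 FPKM were tested (11553 for WT cells, 11852 for the tdTomato line). log2(FPKM + 0.5) was modelled by group and library series over all libraries of a table, with limma 3.58.1 (R 4.3.3, trend, 2-sided, Benjamini-Hochberg over all tested genes). Fold changes on this scale understate those of low genes. The members and gene lists were chosen with earlier results of these data known. All 10 genes are described. From each list, the 3 genes with the largest called change in WT cells and the 2 in the tdTomato line are named, and the 3 genes nearest to Trp53, Mdm2 and Cdkn1a over the WT libraries, of which 1 is not reported here. Depth was estimated from the FPKM step of 1 read in single-exon genes, with GENCODE exon lengths on GRCm38, which may not be the lengths the authors used. None of the 435 and 36 pairs of libraries was identical. The fit was tested on simulated data. Alternatives were pseudocounts of 0.1 and 1, no filter, rescaled FPKM, no series term, only the compared groups, a replicate block, all 6 NT libraries as control, and leaving out each replicate. Use of LDK libraries only, or of none of the LDM libraries, was added after seeing the data.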

Additional observations from a re-analysis of the deposited data

Results flagged for a closer look

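Among the 6 NT libraries of WT cells, the lowest Trp53 value, 86.8 FPKM in NT replicate 1, lay apart from the other 5 (91.0 to 93.4 FPKM) by 0.639 of the whole range. Chance alone gives such a gap in about 1 in 20 groups. Each of the 9 tested genes was searched for one, so a single gap among them is less unusual than that rate. All crRNA libraries of the WT set were below this library too, at 83.7 FPKM or less.

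The effects of Rbfox3 crRNA 5 and Rbfox3 crRNA 3, each against the NT libraries of its own set, differed for Aen by 0.38 and for Bax by 0.26 on the log2 scale (adjusted p = 0.0288 for Aen and 0.0186 for Bax in limma). The sets differ in library series, and the part of the series in this difference was not tested apart from the series term of the fit, without which the Bax difference did not pass.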

How the results depend on the processing

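Of 1141 alternative values of 70 called results, 1020 kept direction and call, 121 lost the call and none reversed. Counts of called genes moved as follows, and the cause was not tested. The share of all tested genes called under each alternative was not counted, so these counts have no background beside them. With LDK libraries only (chosen after seeing the data), each Map2 crRNA had 4 genes, against 7. For the Mapt pair the count was 0, against 1, with no filter, rescaled FPKM, the replicate block and only the compared groups. For the Rbfox3 effects it was 1 with no series term and 0 with only the compared groups, against 2. For tdTomato crRNA 4 it was 0, against 1, with no filter, no series term, the replicate block and only the compared groups. For tdTomato crRNA 7 it was 1 with rescaled FPKM, 0 with no series term and 1 without the LDM libraries (chosen after seeing the data), against 2. In the mean of both, genes called higher were 0 with no filter, 2 with rescaled FPKM, 0 with no series term and 0 with the replicate block, against 1. Genes called lower were 1 with no filter, 0 with rescaled FPKM, 0 with no series term and 1 without the LDM libraries, against 2. Leaving out 1 library gave 4 to 7 for Map2 crRNA 1 (4 without NT replicate 6 or its replicate 2), 3 to 5 for the NT sets (5 without NT replicate 3), 0 to 2 for the Rbfox3 effects, 0 to 1 for the Mapt pair, 0 to 1 for tdTomato crRNA 4, 1 to 2 for tdTomato crRNA 7, and 0 to 1 higher and 0 to 2 lower in the mean of both.

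Libraries were matched between the groups of a set by the number in their library names. In the WT set and the tdTomato line, each group has a library with no number in its name. These are the LDL and LDM libraries, and they were matched with each other. Deviations of matched libraries correlated at −0.0506 to 0.396 in the WT set, 0.00293 to 0.0545 in the N set and 0.0751 to 0.292 in the tdTomato line. The medians were 0.0779, 0.0267 and 0.119, against −0.0481, −0.0138 and −0.127 between libraries of other groups that were not matched. Matched libraries were thus weakly more alike. In the WT set and the tdTomato line the match also follows the library series, and the part of each was not tested. The replicate block moved only the counts given above beyond 1.5 times. Depth limits Pmaip1, and the tdTomato line, most.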

Other observations

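Markers of the cells themselves moved as well. Of 9 tested sympathoadrenal markers, 4 were higher and 3 lower in the mean of the 7 crRNAs, where 28.2% and 21.7% of all tested genes were, with a median log2 fold change of 0.12 beside 0.03 over all tested genes. The largest changes were in Hand2 (0.44), Gata3 (−0.38) and Isl1 (0.32), transcription factors of sympathetic neuron development. In the mean of both tdTomato crRNAs, 1 of the 9 was higher (Phox2a, 0.26) and 0 were lower, where 8.29% and 11.3% of all tested genes were. Of 3 tested markers of other cell types, 0 passed in either direction in both means.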
